A study of Mus musculus with 17 samples.

Results

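The 10 genes described here are Grem1, Eps8l1, Tbc1d31, Traf3, Klf9, Tle1, Fam13a, Kcnn2, Trim80 and Exoc4. They were chosen by their difference in liver RNA level between the libraries labelled SMSrKO and WT, so that difference is given below as a description, with no test. They are 10 of the 49315 genes counted in liver. All 10 were also found by symbol among the 15632 genes listed for isolated hepatocytes, a second experiment whose values the rule did not use. The question put to the hepatocytes was whether the same genes moved there.

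The liver samples were 4 WT and 4 SMSrKO, all from mice on a high-fat diet that also drank fructose, for 16 weeks. SMSr, encoded by Samd8, makes ceramide phosphoethanolamine. The hepatocytes were freed with collagenase from mice aged 2 months, in 3 groups of 3, labelled WT, Sms1/Sms2-dKO (called dKO) and Sms1/Sms2/Smsr-tKO (called tKO). By these labels the dKO is a knockout of the sphingomyelin synthases SMS1 and SMS2, encoded by Sgms1 and Sgms2. The tKO is labelled a knockout of SMSr as well, so the labels of tKO and dKO differ in Samd8 alone. The sources used here do not give sex, strain, the design of the alleles or the diet of the hepatocyte donors.

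The depth of the liver libraries was 24391627 to 47351126 counts. In hepatocytes the sum of expected counts was 9221488 to 9665309 per library. The labels name liver as the tissue of all samples, while 1 sentence of the extraction protocol names subcutaneous fat for the SMSrKO experiment. Albumin (Alb) stood at 35391 to 62533 CPM (reads of a gene scaled to library depth) over the 8 liver libraries, and the adipocyte hormone genes Adipoq and Lep stood at 0 to 0.0663 and at 0 CPM. The summed level of 7 hepatocyte marker genes was 71318 to 79929.9 CPM in SMSrKO and 47438 to 62460.1 in WT, and that of 6 erythroid genes 40.2 to 45.1 and 43.8 to 159 CPM, with 0 genes of either list called. The part of these marker differences in the liver differences below was not tested. Samd8 RNA was not lower in the libraries labelled SMSrKO (50.3 to 59.0 CPM) than in WT (38.0 to 51.7). It was higher in those labelled tKO (97.6 to 103) than in dKO (75.1 to 86.9; edgeR adjusted p = 9.24e-06). Sgms1 RNA was higher in dKO (85.1 to 96.2 CPM) than in WT hepatocytes (45.9 to 52.2). In tKO it stood at 55.6 to 62.2 CPM, below dKO (edgeR adjusted p = 1.71e-14), so tKO and dKO also differed in Sgms1 RNA. Sgms2 RNA was lower in dKO (133 to 164 CPM) and tKO (144 to 157) than in WT hepatocytes (175 to 191; edgeR adjusted p = 6.22e-06 and 3.83e-06). The RNA of Samd8 and Sgms1 thus does not bear out the labels, and every direction below is between libraries as labelled. Liver library WT 1 stood apart, with 52988 CPM of 18 acute phase genes against 20482 to 24299 in the other 7. Nothing in the labels ties each liver sample to an animal of its own. The p-values therefore rest on sample-to-sample spread that may be technical in origin. Beyond counting error, its common value in edgeR was a coefficient of variation of 20.3% in liver and 3.52% in hepatocytes. For pairs of libraries within a group, the chi-square per degree of freedom would be near 1 with counting error alone. It was 23.9 to 185 in liver and 1.56 to 2.76 in hepatocytes. The hepatocyte p-values rest on that narrow spread, and whether those libraries are separate animals cannot be told from it.

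The genes do not form a pathway. Gremlin 1 (Grem1) is a secreted protein that binds bone morphogenetic proteins (BMPs) and keeps them from their receptors. In liver, BMPs from endothelial cells signal to hepatocytes through Smad proteins and turn on targets such as the iron hormone gene Hamp and the Id genes. Traf3 and Tle1 act as brakes inside the cell, Traf3 on the non-canonical NF-kB pathway and Tle1 as a corepressor of transcription. Klf9 is a transcription factor induced by glucocorticoid and thyroid hormone. Eps8l1, Fam13a, Tbc1d31, Exoc4, Kcnn2 and Trim80 encode proteins of the cytoskeleton, the centriole, secretion, ion conductance and protein turnover.

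The genes lie on 9 chromosomes, with Fam13a and Exoc4 both on chromosome 6. RefSeq start windows of 300 bases, build GRCm38.p6, were at hand for 8 of the 10, with none for Tbc1d31 and Kcnn2. The stretches before the start are shown for the genes that stood furthest above WT (Grem1), furthest below it (Eps8l1) and at the highest level (Klf9), at chr2:113758649-113758898 on the minus strand, chr7:4460447-4460673 on the plus strand and chr19:23140976-23141225 on the plus strand. Each reads 5′ to 3′ on the strand of its gene, and capitals mark a GC box or a CCAAT box on either strand.
Grem1: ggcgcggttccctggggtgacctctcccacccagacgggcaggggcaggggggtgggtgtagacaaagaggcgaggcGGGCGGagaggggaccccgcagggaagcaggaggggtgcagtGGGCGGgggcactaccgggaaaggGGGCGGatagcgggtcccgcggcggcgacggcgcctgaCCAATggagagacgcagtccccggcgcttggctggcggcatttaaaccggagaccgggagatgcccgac
Eps8l1: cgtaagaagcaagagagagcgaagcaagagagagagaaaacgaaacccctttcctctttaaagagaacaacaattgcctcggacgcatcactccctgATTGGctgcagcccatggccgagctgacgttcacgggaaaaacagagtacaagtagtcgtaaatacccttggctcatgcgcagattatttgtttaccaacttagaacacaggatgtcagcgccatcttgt
Klf9: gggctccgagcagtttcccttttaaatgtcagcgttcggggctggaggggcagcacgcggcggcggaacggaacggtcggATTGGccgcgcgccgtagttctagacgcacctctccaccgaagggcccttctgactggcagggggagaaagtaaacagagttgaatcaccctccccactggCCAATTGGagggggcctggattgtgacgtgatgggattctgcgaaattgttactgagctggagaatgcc
The Grem1 stretch held 3 GC boxes (GGGCGG) and 1 CCAAT box (CCAAT, or ATTGG where it lies on the other strand), the Eps8l1 stretch 1 CCAAT box, and the Klf9 stretch 3 CCAAT boxes, of which a pair overlap on opposite strands. Over the whole windows, a GC box was in 6 of the 10 windows of these genes and in 35.7% of all 32851 windows, and a CCAAT box in 5 of 10 and in 37.4%. Eps8l1 has 3 of the 10 windows, 2 of them overlapping and each with a GC box, so by gene a GC box was in 4 of 8. The TATA box (TATAAA), the E-box (CACGTG) and the full palindrome of the glucocorticoid response element were in none of the 10 windows and in 13.6%, 7.15% and 0.00913% of all windows. Such matches of letters are a description and not binding sites.

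**Figure D1:**
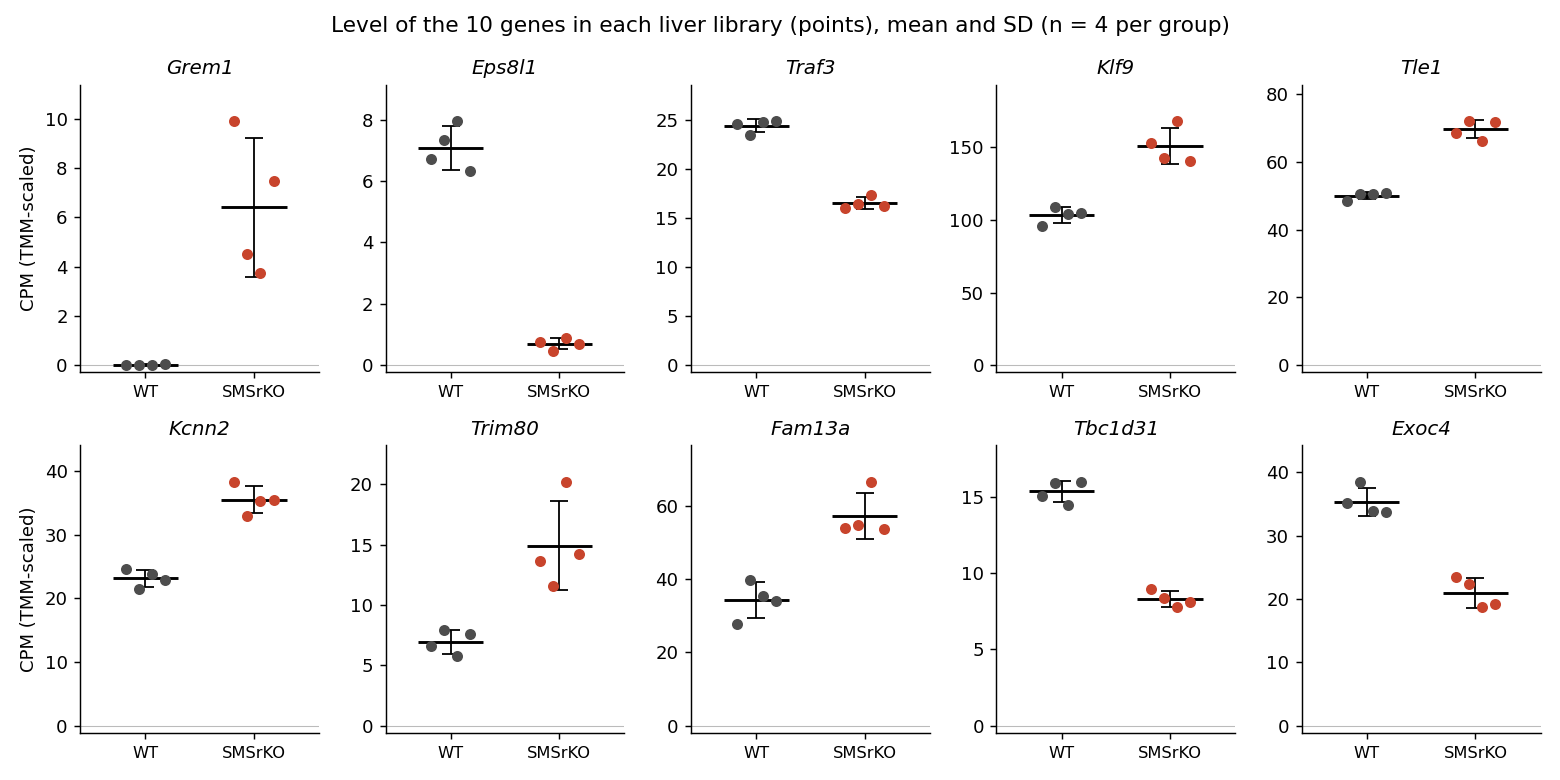
Level of each of the 10 genes in the liver libraries, in depth-scaled counts (CPM) adjusted by the trimmed mean of M values, with points for libraries and lines for the mean and SD (n = 4 per group). No gene has overlapping groups; Grem1 is at or near 0 in WT and at 3.76 to 9.90 CPM in SMSrKO, while Eps8l1 has means of 7.07 CPM in WT and 0.694 in SMSrKO.

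In liver, 6 of the genes were higher in SMSrKO (Grem1, Klf9, Tle1, Kcnn2, Trim80 and Fam13a) and 4 were lower (Eps8l1, Tbc1d31, Traf3 and Exoc4). The groups overlapped for none of the 10, which 8.12% of all 15820 tested genes share, and all 10 were among the 37 genes, 0.234% of those tested, that passed an adjusted p of 0.05. Both counts follow from how the genes were picked. The number of the 10 past that threshold was 3 without SMSrKO 7 or WT 4, 4 without SMSrKO 5 or WT 3, and 6 without SMSrKO 6 or with library totals, with Grem1, Eps8l1 and Tbc1d31 in each. Most differences were small beside those of Grem1 and Eps8l1. Apart from these, the fitted differences lay between 1.39-fold (Tle1) and 2.14-fold (Trim80), and the nearest libraries of opposite groups stood 1.30-fold (Klf9) to 1.61-fold (Tbc1d31) apart. Since whole tissue was sampled, fewer cells of a type and less RNA per cell cannot be told apart for any of these genes.

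Per transcript length, Klf9 was the most abundant member in WT liver, at 71.2 ± 7.62 TPM (a transcript abundance scaled for gene length and depth; SD, n = 4). Tle1 followed at 12.9 ± 0.958 TPM. Trim80 (8.11 ± 1.58), Traf3 (7.45 ± 0.369), Fam13a (7.35 ± 1.40) and Kcnn2 (7.08 ± 0.118) came next and did not differ from one another beyond their spread. Exoc4 stood at 6.27 ± 0.663 TPM and Tbc1d31 at 5.42 ± 0.538, again within each other's spread, and Eps8l1 at 2.63 ± 0.275. Grem1 was last at 0.00422 ± 0.00845 TPM, above 0.890% of the genes detected in WT liver. In SMSrKO liver Grem1 stood at 3.33 ± 1.42 TPM, above 63.2% of detected genes, and Eps8l1 came last at 0.249 ± 0.0646 TPM.

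Grem1 (chromosome 2, 113746164 to 113758646, minus strand, GRCm38) was close to absent in WT and present in every SMSrKO library. Its reads numbered 0, 0, 0 and 1 in WT 1 to 4, and 228, 127, 115 and 292 in SMSrKO 5 to 8. These counts are 0, 0, 0 and 0.0302 CPM against 9.90, 4.52, 3.76 and 7.47 CPM. The SMSrKO libraries varied among themselves by 44.0% of their mean, the widest spread of the 10 genes, and even the lowest stood 125-fold above the highest WT library. Summed over libraries the ratio was 762 reads to 1, or 859.7-fold after scaling, with an exact Clopper-Pearson interval of 154 to 34000.1 at 95% that covers counting error only. Fibroblasts and smooth muscle are known sources of gremlin 1, so their genes were read beside it. The summed level of 10 stellate cell and fibroblast genes was 452 to 529 CPM in SMSrKO and 316 to 657 CPM in WT, and that of 5 smooth muscle genes was 7.82 to 12.6 and 7.63 to 16.2 CPM. No gene of these lists was at 0 in either group, and 0 of the 10 and 0 of the 4 tested passed the threshold.

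The neighbourhood of Grem1 held a second RNA that was higher in SMSrKO. The gene 4930533B01Rik is annotated as an antisense RNA at 113691053 to 113708550 on the minus strand, the strand of Grem1. It starts 37.6 kb downstream of the 3′ end of Grem1. It lies inside the span of the formin gene Fmn1, which runs on the plus strand. It had 3, 2, 2 and 2 reads in WT 1 to 4 and 33, 26, 20 and 61 in SMSrKO 5 to 8. The groups did not overlap, at 0.0666 ± 0.00628 CPM in WT and 1.14 ± 0.426 CPM in SMSrKO (SD, n = 4 each). Its log2 fold change was 4.04 ± 0.416 (SE; edgeR's quasi-likelihood adjusted p = 0.00386). With a liver library left out in turn, its edgeR adjusted p stayed at or below 0.0326. Fmn1 itself, whose body ends 29.4 kb from Grem1, stood at 6.47 ± 0.900 CPM in WT and 5.65 ± 1.43 in SMSrKO (log2 −0.19 ± 0.193, edgeR adjusted p = 0.699), and Arhgap11a on the other side at 4.48 ± 1.09 and 3.25 ± 1.14 (−0.45 ± 0.255, edgeR adjusted p = 0.488). Since no source used here gives the strand setting of the counts, reads of 4930533B01Rik and of Fmn1 on the opposite strand cannot be told apart. The gene was not found in the hepatocyte files.

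Near the other 9 members no gene passed the threshold. Within 500 kb of the 10 genes lay 134 tested neighbours, of which 4930533B01Rik was the 1 called, and 14.9% of them had an unadjusted p below 0.05 against 13.1% of all tested genes. Around Eps8l1 the nearest genes were level between groups, Rdh13 at 11.7 ± 1.01 CPM in WT and 11.8 ± 1.09 in SMSrKO, and Ppp1r12c, 1.03 kb away, at 40.1 ± 2.11 and 38.2 ± 3.93. Of the 134 neighbours, 61 differed in the direction of their member. Among these were Fam83a next to Tbc1d31 (log2 −1.99 ± 0.765, edgeR adjusted p = 0.33) and C630043F03Rik next to Tle1 (0.59 ± 0.229, edgeR adjusted p = 0.313). The antisense RNA BB365896 inside Fam13a stood at 0.476 ± 0.227 and 0.752 ± 0.213 CPM (edgeR adjusted p = 0.483). A330093E20Rik, which shares 284 exonic bases with Kcnn2 on the other strand, stood at 0.601 ± 0.184 and 0.963 ± 0.195 CPM (edgeR adjusted p = 0.37). Both levels were far below those of the genes they overlap.

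**Figure D2:**
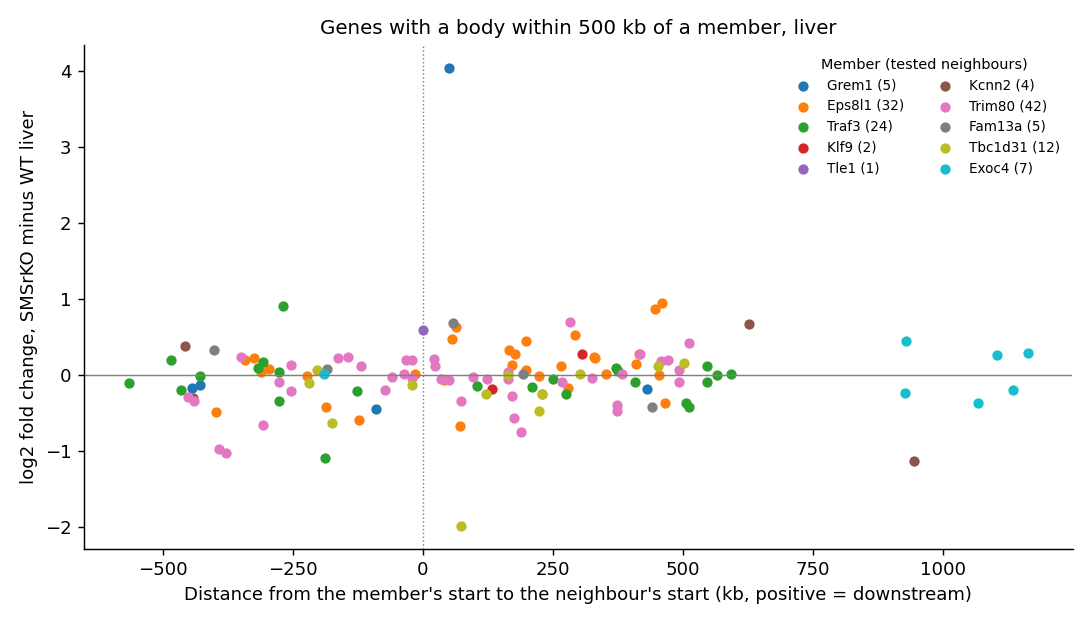
Log2 fold change in liver (SMSrKO minus WT) of the 134 tested genes near a member, against the distance in kb between the start of the member and that of the neighbour. The point at 4.04 is 4930533B01Rik near Grem1, and the others lie between −1.99 and 0.95.

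The other genes of the BMP pathway were read for company. In liver 0 of 7 tested BMP ligands, 0 of 10 receptors and Smads, 0 of 5 other antagonists and 0 of 9 BMP target genes passed the threshold, with median log2 fold changes of 0.05, −0.01, −0.15 and 0.61 against −0.01 over all tested genes. The target gene Hamp had means of 43.6 ± 32.2 CPM in WT and 384 ± 97.9 in SMSrKO, a log2 difference of 3.14 ± 0.698 that missed the threshold (edgeR adjusted p = 0.144). Id1, another target, stood at 6.17 ± 2.66 and 14.0 ± 5.93 CPM (1.19 ± 0.411, edgeR adjusted p = 0.278).

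Eps8l1 (chromosome 7, 4460674 to 4480487, plus strand), an adaptor protein of the EPS8 family that acts on actin, stood furthest below WT of the 10 genes. It stood at 6.70, 7.32, 7.94 and 6.33 CPM in WT 1 to 4 and at 0.739, 0.463, 0.883 and 0.690 CPM in SMSrKO 5 to 8. All 4 SMSrKO libraries were low, and the highest of them was 7.18-fold below the lowest WT library. The log2 fold change was −3.34 ± 0.206 (SE), with 17, 13, 27 and 27 reads behind the SMSrKO values. Its paralogs Eps8 (4.97 ± 1.02 CPM in WT, 4.58 ± 0.521 in SMSrKO) and Eps8l2 (40.9 ± 16.9 and 42.0 ± 7.45) did not pass the threshold (edgeR adjusted p = 0.812 and 0.965), nor did any of the 8 tested genes of its family and partners.

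Traf3 (chromosome 12, 111166370 to 111267153) is the adaptor that marks the kinase NIK for breakdown and so holds back non-canonical NF-kB. It had the narrowest spread of the 4 lower genes and stood at 24.6, 23.5, 24.8 and 24.9 CPM in WT and at 16.0, 16.5, 17.4 and 16.3 CPM in SMSrKO. The libraries of each group lay close together, with coefficients of variation of 2.58% in WT and 3.60% in SMSrKO, and the groups were apart (log2 −0.56 ± 0.0737). Of 20 tested TRAF family and NF-kB genes 0 passed the threshold, among them Map3k14, which encodes NIK, at 11.3 ± 1.38 CPM in WT and 8.61 ± 1.99 in SMSrKO (edgeR adjusted p = 0.384). The paralogs Traf2 and Traf6 stood at 14.7 ± 0.755 and 22.2 ± 0.243 CPM in WT and at 12.6 ± 1.01 and 21.3 ± 1.34 in SMSrKO (edgeR adjusted p = 0.38 and 0.778).

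Klf9 (chromosome 19, 23141226 to 23166911), the hormone-induced Krüppel-like factor, was higher in SMSrKO. Its levels were 95.7, 109, 104 and 105 CPM in WT 1 to 4 and 153, 143, 168 and 141 CPM in SMSrKO 5 to 8. The lowest SMSrKO library stood above the highest WT library, and the log2 fold change was 0.55 ± 0.0873. None of the other 12 tested KLF genes passed, with a median log2 fold change of −0.00. Nor did any of 16 tested glucocorticoid-induced genes (median −0.21), 9 thyroid hormone response genes (median −0.45) or 18 circadian clock genes (median 0.17). Among them Fkbp5, a glucocorticoid target, stood at 98.2 ± 41.2 CPM in WT and 85.7 ± 19.3 in SMSrKO (edgeR adjusted p = 0.797).

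Tle1 (chromosome 4, 72117142 to 72200919, minus strand), a corepressor of the Groucho family used by Wnt and Notch effectors, had the smallest difference of the 10 genes. It stood at 48.4, 50.5, 50.5 and 50.7 CPM in WT and at 68.7, 72.0, 66.3 and 71.7 CPM in SMSrKO. The WT libraries had a coefficient of variation of 2.16%, and the groups were well apart for a log2 fold change of 0.48 ± 0.0652. Its paralog Tle2 stood at 18.2 ± 2.32 CPM in WT and 24.7 ± 3.85 in SMSrKO (0.44 ± 0.133, edgeR adjusted p = 0.21), and Tle3 and Tle4 at log2 −0.02 ± 0.246 and −0.08 ± 0.162. Of 5 tested TLE genes 0 passed, and of 13 partners and Wnt target genes 0 passed.

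Kcnn2 (chromosome 18) encodes a small-conductance potassium channel opened by calcium through calmodulin. It stood at 24.6, 21.5, 23.8 and 22.8 CPM in WT and at 38.3, 33.0, 35.3 and 35.5 CPM in SMSrKO. All SMSrKO libraries were higher (log2 0.61 ± 0.0793). The related channel gene Kcnn1 stood at 7.60 ± 1.62 and 9.50 ± 1.75 CPM and Kcnn4 at 1.75 ± 0.636 and 1.33 ± 0.633 (edgeR adjusted p = 0.488 and 0.72), and of the 10 tested channel and partner genes 0 passed.

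Trim80 (chromosome 11, 115440545 to 115448270), a member of the tripartite motif family that holds many ubiquitin ligases, stood at 6.57, 7.95, 5.76 and 7.57 CPM in WT. In SMSrKO 5 to 8 it stood at 13.6, 11.6, 20.2 and 14.2 CPM. The SMSrKO libraries were all higher and spread over a wider range, with SMSrKO 7 on top, and the log2 fold change of 1.10 ± 0.179 became 0.92 without that library. Of 35 tested TRIM genes 0 passed (median −0.04).

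Fam13a (chromosome 6, 58932090 to 59024549, minus strand), whose locus is tied to body fat distribution in human genetics, was higher in SMSrKO liver. It stood at 27.9, 39.8, 35.5 and 34.0 CPM in WT and at 54.1, 54.9, 66.7 and 53.9 CPM in SMSrKO. WT 1 was the lowest WT library and SMSrKO 7 the highest of all 8, and the groups did not overlap (0.74 ± 0.118). The paralog Fam13b stood at 21.2 ± 3.84 and 25.1 ± 2.48 CPM (0.25 ± 0.135, edgeR adjusted p = 0.47).

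Tbc1d31 (chromosome 15, 57912199 to 57970067), a protein of the satellites around the centriole, was lower in SMSrKO, at 15.1, 15.9, 14.5 and 16.0 CPM in WT and 8.99, 8.36, 7.81 and 8.11 CPM in SMSrKO. The 2 ranges were far apart and both narrow (log2 −0.89 ± 0.0937). Of 14 tested centriolar satellite genes 0 passed (median −0.01). Exoc4 (chromosome 6, 33249085 to 33973979), the Sec8 subunit of the exocyst complex that tethers secretory vesicles to the plasma membrane, stood at 35.2, 38.5, 33.9 and 33.7 CPM in WT and at 23.5, 22.3, 18.7 and 19.2 CPM in SMSrKO. Every SMSrKO library was lower (−0.76 ± 0.0961). The other subunits did not follow past the threshold, since 0 of 14 tested exocyst and GTPase genes passed (median −0.09), with Exoc1 at −0.15 ± 0.126, Exoc2 at −0.21 ± 0.119 and Exoc7 at 0.01 ± 0.0752.

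**Figure D3:**
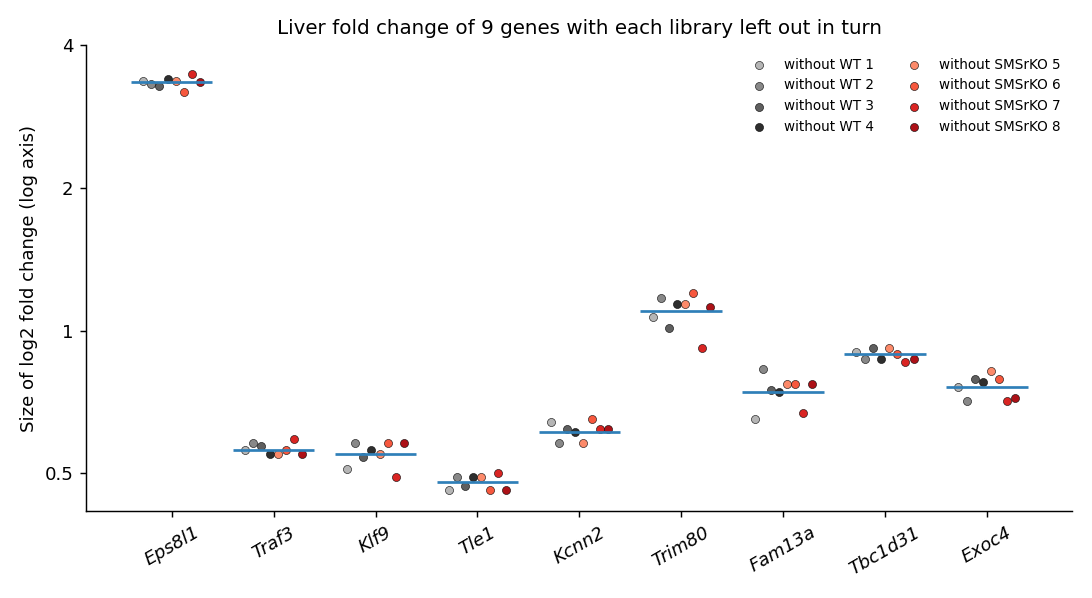
Size of the liver log2 fold change of 9 of the genes (Grem1 is off this scale, at 8.71 to 10.68) with each of the 8 libraries left out in turn, as points on a log axis, and with all libraries, as lines. The values for Eps8l1 run from −3.48 to −3.19 and those for Trim80 from 0.92 to 1.20.

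With each of the 8 libraries left out in turn, all 10 genes kept their direction. Since the groups overlapped for none of the genes picked, this could hardly have come out otherwise. The ranges below describe size alone. Grem1 ranged from 8.71 (without WT 1) to 10.68 (without WT 4, which holds its 1 WT read). Fam13a ranged from 0.65 (without WT 1) to 0.83 (without WT 2) and Klf9 from 0.49 (without SMSrKO 7) to 0.58 (without SMSrKO 6).

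**Figure D4:**
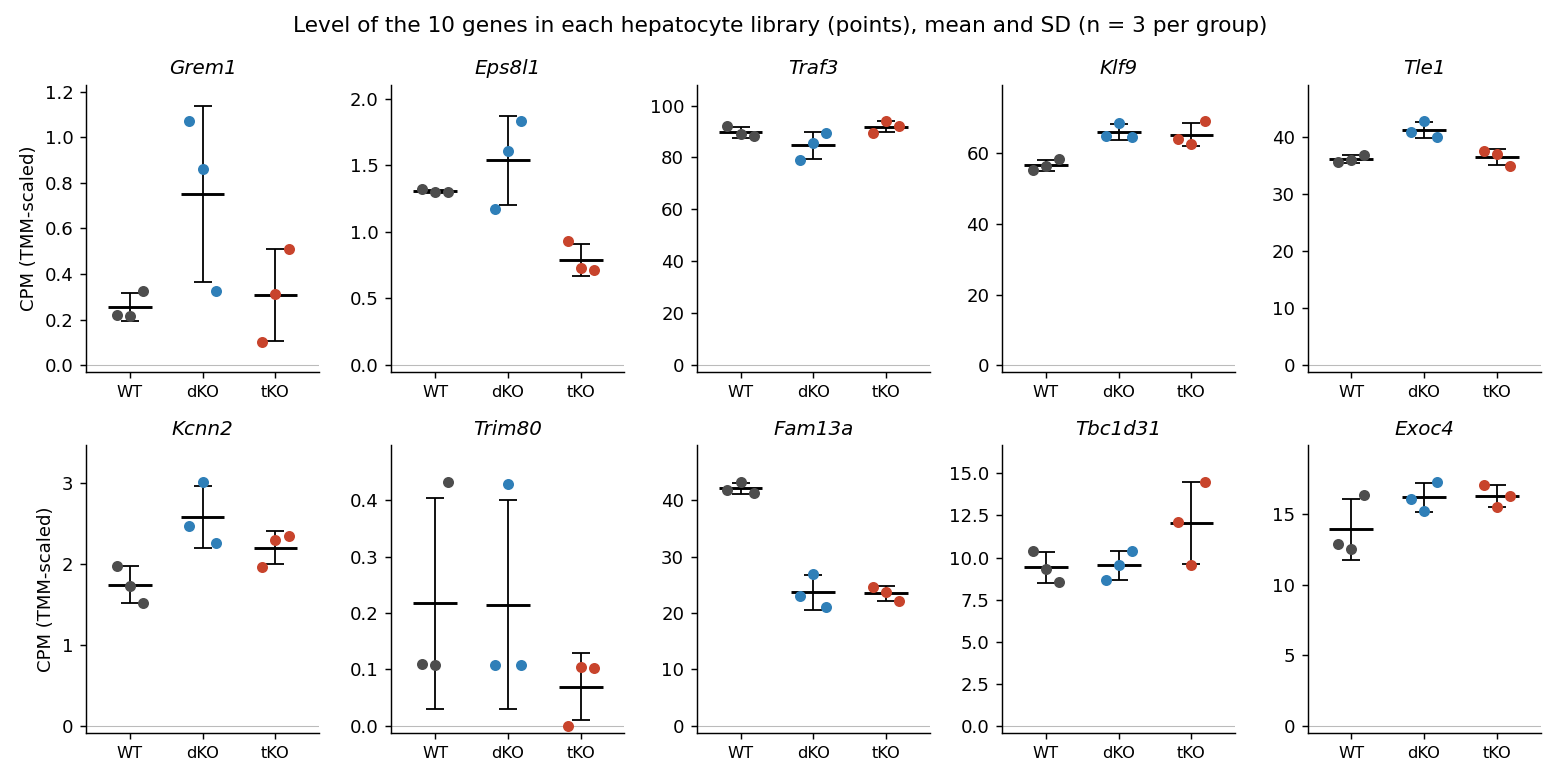
Level of each of the 10 genes in the hepatocyte libraries, in CPM scaled by the trimmed mean of M values, with points for libraries and lines for the mean and SD (n = 3 per group, a library that does not list the gene drawn at 0). Fam13a stands at 41.4 to 43.3 CPM in WT and at 21.0 to 27.0 CPM in dKO and tKO, and Grem1 and Trim80 stay near the level of single reads.

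In hepatocytes some of the genes moved in the direction seen in liver and others in the opposite one. Grem1 and Trim80, with 1 to 10 reads per library where listed, fell below the filter on low counts. Of the other 8, 3 passed the threshold in dKO against WT (Fam13a lower, Klf9 and Tle1 higher), at a share of called genes of 44.0% over all 11471 tested, and 3 in tKO against WT (Fam13a lower, Klf9 and Tbc1d31 higher), at a share of 47.4%. In tKO against dKO, the pair whose labels differ in Samd8, 0 of the 8 passed edgeR's quasi-likelihood test, at a share of 29.5% over all tested genes. Of these 8, 4 had an unadjusted p below 0.05, and DESeq2 also called 0. With 8 genes, these counts are not read as a result about them. With the dispersion of the liver libraries the shares over all genes were 9.20%, 10.6% and 2.84% in the order given, and of the 8 genes Fam13a alone was called in both comparisons with WT and 0 in tKO against dKO. That test gives every gene the 1 common liver value of 20.3%. Differences as small as those of Klf9 and Tle1 could hardly be called at it, so the loss of such calls says little about them. Groups that do not overlap were found for 51.9%, 53.4% and 39.8% of all tested genes in the same order. The comparisons with WT share the 3 WT libraries, so their values below are given side by side. The working label that these genes changed in SMSrKO liver alone goes against the Fam13a call, which held in all 14 alternatives in both comparisons with WT. The calls of Klf9, Tle1 and Tbc1d31 each ended under some alternatives, given below.

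Per length, the order of the genes in WT hepatocytes was another than in liver. Klf9 led again at 17.6 ± 0.535 fragments per kilobase scaled to depth (FPKM; SD, n = 3), followed by Traf3 at 12.5 ± 0.249. Tle1 (10.3 ± 0.571) and Fam13a (9.87 ± 0.236) did not differ beyond their spread. Exoc4 stood at 3.91 ± 0.560 FPKM, Tbc1d31 at 2.89 ± 0.243, Kcnn2 at 0.710 ± 0.149 and Eps8l1 at 0.350. Grem1 (0.163 ± 0.0404 FPKM) and Trim80 (0.117 ± 0.0981) were lowest and within each other's spread. The 2 experiments were counted and scaled separately, so their levels are not compared as such, though Trim80 ranked above 74.1% of detected genes in WT liver and above 15.4% of listed genes in WT hepatocytes, and Kcnn2 above 72.2% and 26.3%.

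Fam13a was the clearest case in hepatocytes, and its direction was opposite to liver. It stood at 41.9, 43.3 and 41.4 CPM in WT 1 to 3, at 23.0, 27.0 and 21.0 in dKO 4 to 6 and at 24.6, 23.7 and 22.1 in tKO 7 to 9. All 6 knockout libraries lay below all 3 WT libraries, and dKO and tKO overlapped. Fam13a fell by 0.83 ± 0.0831 on the log2 scale in dKO (edgeR's quasi-likelihood adjusted p = 1.95e-14) and by 0.85 ± 0.0826 in tKO (edgeR adjusted p = 6.3e-15), while tKO and dKO differed by −0.01 ± 0.091 (edgeR adjusted p = 0.932). In edgeR's likelihood ratio test at the liver dispersion the adjusted p was 0.0115 and 0.00895, the highest of 14 alternatives for each, with lowest values of 1.01e-22 and 1.66e-23. Its paralog Fam13b went the other way, from 39.9 ± 4.11 CPM in WT to 63.7 ± 0.173 in dKO and 57.5 ± 3.11 in tKO (log2 0.68 ± 0.0689 and 0.53 ± 0.0695, edgeR adjusted p = 5.38e-14 and 5.79e-10). Neither Fam13b call held with the liver dispersion.

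Klf9 rose slightly in both knockouts, in the direction seen in liver. It stood at 55.3, 56.4 and 58.4 CPM in WT, 65.0, 68.7 and 64.7 in dKO and 64.2, 62.7 and 69.1 in tKO. The knockout libraries were all above WT. The log2 fold changes were 0.22 ± 0.0624 in dKO (edgeR adjusted p = 0.00226) and 0.20 ± 0.0621 in tKO (edgeR adjusted p = 0.00441), and −0.02 ± 0.0606 between tKO and dKO. Both calls ended with the liver dispersion, and that in tKO also without tKO 9 (0.16). Of 13 tested other KLF genes, 6 rose and 1 fell in dKO and 9 rose and 2 fell in tKO, with Klf6 at 0.75 ± 0.038 and 1.10 ± 0.0378 and Klf4 at 1.82 ± 0.157 and 1.17 ± 0.169. The called shares over all genes were 44.0% and 47.4%. With the liver dispersion 3 were higher and 0 lower in dKO and 4 higher and 1 lower in tKO, Klf6 and Klf4 among them.

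Tle1 rose in dKO and not in tKO. It stood at 35.5, 35.9 and 36.8 CPM in WT, 40.9, 42.7 and 40.0 in dKO and 37.5, 36.9 and 34.8 in tKO. The dKO libraries lay above both other groups, which overlapped. The log2 fold change was 0.19 ± 0.0738 in dKO (edgeR adjusted p = 0.0288), 0.01 ± 0.0747 in tKO (edgeR adjusted p = 0.912) and −0.18 ± 0.073 between tKO and dKO (edgeR adjusted p = 0.0547). The dKO call ended with DESeq2, with the liver dispersion and without WT 1, WT 2, dKO 4 or dKO 5. Among its paralogs Tle4 rose in dKO (0.39 ± 0.0813) and Tle3 fell in tKO (−0.55 ± 0.0836, from 35.2 ± 3.54 to 24.0 ± 1.01 CPM), and Aes, a short member of the family, fell in both (−0.34 ± 0.0469 and −0.17 ± 0.0462). Tle6, at 2.83 ± 0.518 CPM in dKO and 2.27 ± 0.866 in tKO, was also called lower than WT in both. The calls of Tle4, Tle3 and Aes ended with the liver dispersion, as did that of Tle6 in dKO. The Tle6 call in tKO held.

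Tbc1d31 rose in tKO, opposite to liver. It stood at 10.4, 9.30 and 8.56 CPM in WT, 8.65, 9.57 and 10.4 in dKO and 12.1, 9.57 and 14.5 in tKO. The groups overlapped, with tKO 9 on top and tKO 8 inside the WT range. The log2 fold change from WT was 0.36 ± 0.14 (edgeR adjusted p = 0.0285), and without tKO 9 it was 0.20 and not called; the call also ended with DESeq2, with the liver dispersion and without WT 2, WT 3 or tKO 7. Of the 13 tested centriolar satellite genes, 0 rose and 4 fell in tKO, among them Ssx2ip (−0.42 ± 0.0904) and Mib1 (−0.18 ± 0.0731), and none of these calls held with the liver dispersion.

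Eps8l1 stood at 1.32, 1.30 and 1.30 CPM in WT hepatocytes, 1.17, 1.61 and 1.83 in dKO and 0.929, 0.728 and 0.712 in tKO. The tKO libraries were below all others, with 7 to 9 reads each. The log2 difference of tKO from dKO was −0.95 ± 0.389 and missed the threshold (edgeR adjusted p = 0.0553), as did that from WT (−0.71 ± 0.404, edgeR adjusted p = 0.141). The difference from dKO was called without dKO 4 (−1.11; edgeR adjusted p = 0.0444, range over 14 alternatives 0.0444 to 0.379). Eps8l2, the more abundant paralog, rose in tKO from 82.9 ± 5.60 CPM in WT to 109.9 ± 3.15 (0.41 ± 0.0548, edgeR adjusted p = 1.23e-09), a call that ended with the liver dispersion.

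In the main fit Traf3, Exoc4 and Kcnn2 passed no hepatocyte test. With library totals Traf3 was called in tKO against dKO (edgeR adjusted p = 0.0412). Traf3 stood at 88.1 to 92.0 CPM in WT, 79.2 to 89.3 in dKO and 89.6 to 93.9 in tKO, and its difference of tKO from dKO was 0.12 ± 0.055 (edgeR adjusted p = 0.1), with the opposite sign to liver. Exoc4 stood at 12.5 to 16.4, 15.2 to 17.3 and 15.5 to 17.1 CPM in the same order, with log2 differences from WT of 0.21 ± 0.115 and 0.22 ± 0.114 (edgeR adjusted p = 0.125 and 0.0963). Both Exoc4 differences were called without WT 3, the highest WT library (0.34 and 0.36). Kcnn2 had 14 to 28 reads per library and stood at 1.74 ± 0.228 CPM in WT, 2.58 ± 0.387 in dKO and 2.20 ± 0.206 in tKO (0.56 ± 0.286 and 0.33 ± 0.294, edgeR adjusted p = 0.104 and 0.366). Around Traf3, the NF-kB gene list moved in both directions, with 10 of 20 tested genes higher and 4 lower in dKO and 9 and 3 in tKO, led by the kinase gene Ikbke (0.82 ± 0.0468 and 0.68 ± 0.0471), at called shares over all genes of 44.0% and 47.4%. With the liver dispersion 2 of the 20 were called in dKO (Ikbke and Mavs) and 1 in tKO (Traf1). Around Exoc4, the GTPase gene Ralb rose (0.52 ± 0.0629 and 0.66 ± 0.0617) and Rhoq fell (−0.28 ± 0.0469 and −0.45 ± 0.0473), and of the other exocyst subunits Exoc5 rose and Exoc6b fell in both, calls that all ended with the liver dispersion.

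Grem1 had 2, 2 and 3 reads in WT, 10, 8 and 3 in dKO and 1, 3 and 5 in tKO. The groups overlapped, and the sums of 7, 21 and 9 reads gave a ratio of 2.96 for dKO to WT (exact Clopper-Pearson interval 1.21 to 8.25), of 1.22 for tKO to WT (0.404 to 3.85) and of 0.411 for tKO to dKO (0.166 to 0.936), intervals that cover counting error only. Trim80 had 6, 6 and 2 reads and was not listed for tKO 7. Stellate cell and fibroblast genes moved with these groups, and their part in the Grem1 reads was not tested. Their sum over 10 genes was 15.9 to 19.9 CPM in WT, with Lrat, Lum and Colec11 at 0, 52.6 to 58.0 in dKO and 31.5 to 36.3 in tKO, and 4 of the 5 tested rose in both knockouts. Endothelial genes stood at 21.0 to 22.4, 123 to 140.4 and 72.2 to 75.5 CPM, with 8 and 7 of 8 higher, and macrophage genes at 94.2 to 109, 202 to 214 and 243 to 272 CPM, with 3 of 3 tested higher and Vsig4 at 0 in WT. Most of the macrophage sum was Cd68 (100.3, 201 and 248 CPM), while Cd5l and C1qa were lower in tKO than in dKO (1.37 and 2.44 CPM, 0.652 and 1.47 CPM). Their part in the changes of Fam13a, Klf9, Tle1 and Tbc1d31 was not tested either.

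The BMP genes around Grem1 did change in hepatocytes. The ligand genes Bmp2 and Bmp6, known products of liver endothelium, rose in dKO (3.38 ± 0.274 and 2.03 ± 0.217) and in tKO (3.33 ± 0.274 and 2.09 ± 0.214), beside the endothelial genes just given. Between tKO and dKO both ligand genes were level (−0.05 ± 0.168 and 0.06 ± 0.161, edgeR adjusted p = 0.87 and 0.81). Of the 8 endothelial genes, 6 were lower in tKO than in dKO, 3 with the liver dispersion. The part of endothelial cells in the ligand levels was not tested. Of 9 tested BMP target genes, 3 rose in dKO, and in tKO 1 rose and 5 fell, at called shares over all genes of 44.0% and 47.4%. With the liver dispersion 0 were called in dKO, and in tKO 1 was higher and 2 lower. In tKO against dKO 7 of 9 fell and 0 rose (median −0.55 against 0.00 over all genes, of which 15.2% fell). Hamp stood at 383 ± 15.3 CPM in WT, 589 ± 21.8 in dKO and 289 ± 21.5 in tKO, and Id1 at 25.6 ± 2.97, 24.5 ± 1.69 and 9.20 ± 1.35 CPM (SD, n = 3). From dKO to tKO Hamp fell by 1.02 ± 0.042 and Id1 by 1.41 ± 0.113 (edgeR adjusted p = 5.41e-33 and 2.14e-18), and with the liver dispersion 3 of the 7 calls held. A fall from dKO to tKO was not limited to BMP targets. All 18 acute phase genes were also called lower (median −0.45), 1 of them with the liver dispersion. What these falls share was not tested.

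**Figure D5:**
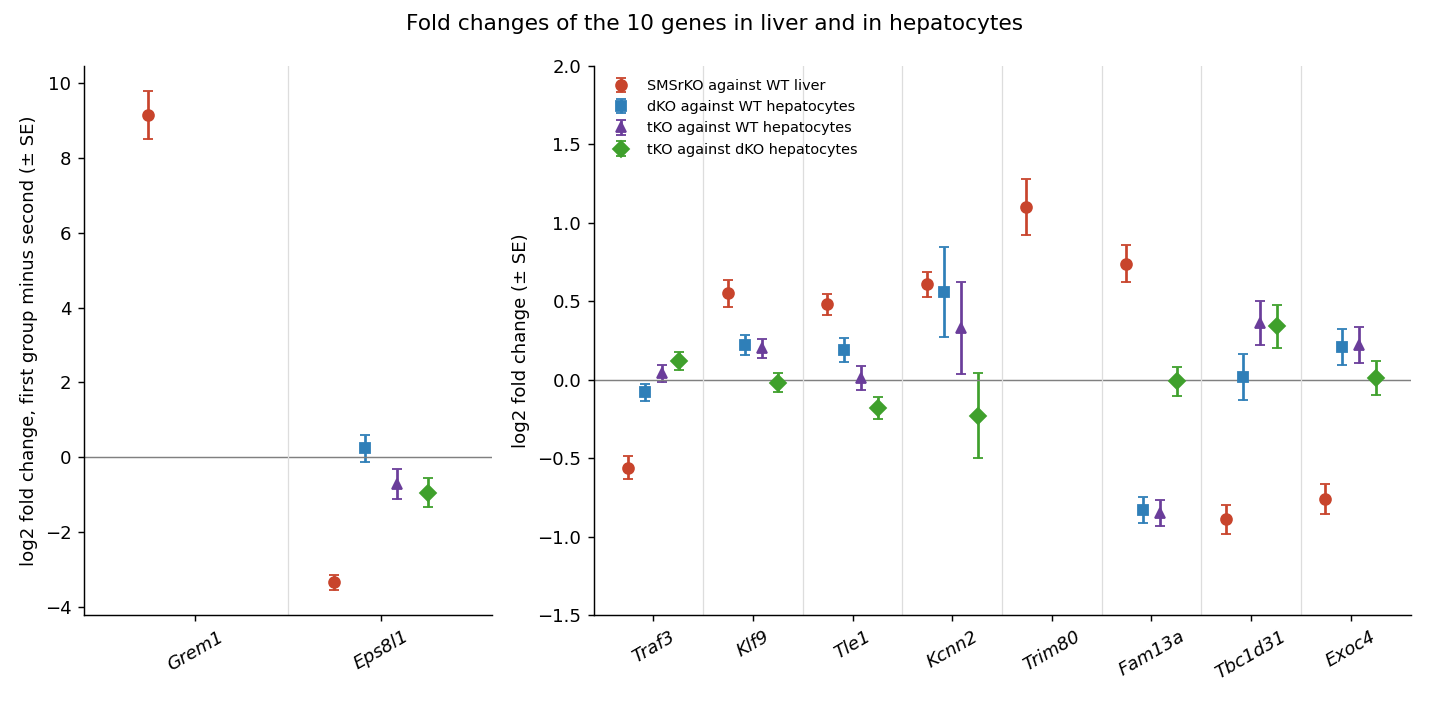
Log2 fold change ± SE of the 10 genes in liver (SMSrKO minus WT) and in the 3 hepatocyte comparisons (first group minus second), with Grem1 and Eps8l1 on a wider axis. Grem1 and Trim80 were not tested in hepatocytes, and the Grem1 value of 9.15 depends on the fit since WT has 1 read; Fam13a is above 0 in liver (0.74) and below 0 in both knockouts against WT (−0.83 and −0.85).

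The plot of fold changes sets the experiments side by side. Eps8l1, lower in liver, also had its lowest hepatocyte levels in tKO, short of the threshold, and Klf9 was higher in SMSrKO liver and, by less, in both hepatocyte knockouts. Fam13a in both knockouts against WT, and Tbc1d31 in tKO against WT, had hepatocyte calls opposite in sign to liver. These side-by-side readings compare other genotypes, ages and diets, and the differences between the experiments were not tested.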

How the data were processed

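RNA sequencing of 8 liver and 9 hepatocyte libraries was read from the authors' files. The deposited liver files hold whole-number counts per Ensembl gene. TPM values per gene were deposited by the authors beside the counts, and a recomputation from the counts and lengths differed by at most 5e-05. The deposited hepatocyte files hold expected counts per Entrez gene, of which 6.25% were not whole and all were rounded, and FPKM values from the authors. These files list only genes above 0, so an unlisted gene was given a count of 0. Per the submitters' processing notes, the tools were STAR 2.5.2b, Trimmomatic 0.36, DESeq2 1.30.1 and Bowtie2 2.2.5, on the builds mm10 and GRCm38. Their roles, the counter and the strand setting are not stated in the sources used here.

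Genes were kept by filterByExpr at a minimum count of 10, scaled by the trimmed mean of M values (TMM) and tested with the quasi-likelihood test of edgeR 4.0.16 (limma 3.58.1, R 4.3.3), with 8 liver libraries in 1 fit and 9 hepatocyte libraries in another. All adjusted p-values are Benjamini-Hochberg values over all tested genes, two-sided, called below 0.05. CPM are TMM-scaled. Alternatives were DESeq2 1.42.0, library totals in place of TMM, no filter, each library left out, and for hepatocytes the 6 libraries compared alone and a likelihood ratio test at the dispersion of the liver libraries. That dispersion was 1 common value set for every gene. Tables and figures used Python 3.11.15, pandas 2.3.3, numpy 2.4.6, scipy 1.17.1 and matplotlib 3.10.9. The tests were tried on simulated counts. In liver they called 25.4% of the 1.5-fold, 64.2% of the 2-fold and 92.4% of the 4-fold changes put in. In hepatocytes (dKO against WT) these shares were 76.1%, 92.5% and 98.5%. A count of 0 called genes in a liver list thus does not show that its genes were unchanged. Coordinates and neighbours are those given with the deposited liver counts (GRCm38), and start windows are from RefSeq (GRCm38.p6). Gene types are from GENCODE M21, matched by Ensembl identifier for 48970 of 49315 liver genes.

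The 10 genes and the lists of pathway and marker genes were chosen with earlier results of these data known. All 10 genes are named. Of each list, genes past the threshold were named, at most 4 with the smallest p per comparison, and paralogs of the 10 whatever their p. Of neighbours within 500 kb, those past the threshold and the nearest on each side could be named. Map3k14, Fkbp5, Hamp and Id1 in liver, and the partners Exoc1, Exoc2 and Exoc7, were named after their values were seen. 1 gene of the lists is not reported here.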

Additional observations from a re-analysis of the deposited data

Results flagged for a closer look

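Among the 10 genes, 3 of the 20 liver groups held a library that stood far from the other 3 by Dixon's test, where chance gives about 1 in 20 groups. That rate holds for normal values and not for counts near 0, so the 3 are not read as an excess. For Grem1 in WT it was the single read of WT 4 (0.0302 CPM, with the others at 0), which any single read would have given. For Tle1 in WT it was WT 1 at 48.4 CPM, a small gap from the others, which lay close together at 50.5 to 50.7. For Fam13a in SMSrKO it was SMSrKO 7 at 66.7 CPM, with the next at 54.9. Among the 8 genes tested in hepatocytes, in 4 cases the groups did not overlap in liver or in a hepatocyte comparison and differed in opposite directions. Such separation in the same direction as in liver was seen for Klf9 in dKO and tKO against WT, Tle1 and Kcnn2 in dKO against WT, and Eps8l1 in tKO against WT and against dKO. Groups did not overlap for 51.9%, 53.4% and 39.8% of all tested genes when WT was set beside dKO, WT beside tKO, and dKO beside tKO. Fam13a, higher in SMSrKO liver, was lower in dKO than in WT hepatocytes (log2 −0.83) and in tKO than in WT (−0.85). Tle1, higher in SMSrKO liver, was lower in tKO than in dKO (−0.18), and Traf3, lower in SMSrKO liver, was higher in tKO than in dKO (0.12). These differences between the experiments were not tested.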

How the results depend on the processing

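No paired analysis was possible because the labels number the samples 1 to 4 and 5 to 8 in liver and 1 to 3, 4 to 6 and 7 to 9 in hepatocytes, so no groups share a number. In liver, 37 genes were called, 19 higher and 18 lower (51.4% higher). DESeq2 called 451 and no filter 136. Library totals gave 39, 15 higher and 24 lower (38.5% higher). Leaving out a library gave 11 (without WT 4) to 109 (without WT 1), with 13 without SMSrKO 5, 15 without SMSrKO 7 and 23 without WT 3. All 10 genes kept their liver direction in every alternative, which follows from how they were picked. Grem1 moved most, to 10.68 without WT 4, the library with its 1 WT read. In hepatocytes the liver dispersion cut the calls from 5045 to 1055 (dKO against WT), 5435 to 1221 (tKO against WT) and 3382 to 326 (tKO against dKO), and those of the genes described here from 3 to 1 in both comparisons with WT, leaving Fam13a. Their counts with a library left out ran from 2 to 4, 1 to 3 (1 without tKO 9) and 0 to 1 (1 without dKO 4, dKO 6 or tKO 8), and those over all genes from 4518 to 5265, 4872 to 5488 and 2825 to 3356. With library totals 2 were called in tKO against dKO, Tbc1d31 (0.37) and Traf3 (0.14). Values near 0 changed sign, to −0.05 for Tbc1d31 in dKO against WT (without WT 3, and without dKO 6) and to −0.01 and −0.00 for Tle1 in tKO against WT (without tKO 7 and tKO 8). In tKO against dKO they became 0.01 for Klf9 (library totals, without dKO 5, and without tKO 8), 0.01, 0.09 and 0.03 for Fam13a (library totals, without dKO 5 and without tKO 9) and −0.03 for Exoc4 (without dKO 5, and without tKO 7). With a library left out, the ranges of these ran to 0.04 (Tle1), −0.06 (Klf9), −0.09 (Fam13a) and 0.06 (Exoc4). Library totals moved the liver values of Traf3 to −0.63 and of Tle1 to 0.41, beside a median over all genes of −0.08 in place of −0.01. The cause of these changes was not tested. The reads of Grem1 and Trim80 in hepatocytes, 1 to 10 a library, limit what could be seen there.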

Other observations

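Of the marker genes read beside the 10 genes in liver, Krt5, a keratin of basal epithelium, was the 1 that passed, at 1.64 ± 0.377 CPM in WT and 5.10 ± 1.62 in SMSrKO (log2 1.64 ± 0.268, edgeR adjusted p = 0.0473). Without WT 1, an alternative chosen after seeing the data, the clock output gene Dbp was also called (103 ± 19.3 CPM in WT and 162 ± 13.1 in SMSrKO over all libraries; edgeR adjusted p = 0.0349 without WT 1 and 0.0964 with it). So were the clock repressor Bhlhe41 (0.0387 and 0.27), the urea cycle genes Cps1 (0.0128 and 0.722) and Ass1 (0.019 and 0.628), 3 haemoglobin genes and the acute phase gene Lcn2 (edgeR adjusted p = 0.0161 and 0.259), at 109 genes called in all, 0.682% of those tested. In hepatocytes Krt5 stood at 2.86 ± 0.322 CPM in dKO and 8.04 ± 1.20 in tKO (log2 1.48 ± 0.196, edgeR adjusted p = 1.53e-09). It was called higher in tKO than in dKO and WT, also with the liver dispersion, and was not called in dKO against WT.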
